A study of Mus musculus with 12 samples.

Results

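The NMDA receptor subunit genes Grin1, Grin2a, Grin2b, Grin2c, Grin2d and Grin3a were examined as targets of small RNAs in chimeric Ago2 CLIP peak lists from adult mouse forebrain. Members were all peaks whose annotated target gene carried one of these 6 symbols. They numbered 827 of the 250567 peaks in the 4 lists of the series, on 6 of 11356 target genes. A chimeric peak is a stretch of target RNA that was joined to one named small RNA in sequenced molecules, so each peak states which small RNA sat on which stretch.

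All mice were C57BL/6, matched for sex and age, and forebrain was taken at 10 to 12 weeks. The excitatory list came from 3 anti-myc libraries, which pulled down a tagged Ago2 that Camk2a-CreERT2 switched on in excitatory neurons. Whole forebrain was pulled down with anti-Ago2 in 3 libraries (replicates 5-7) and in a further 4 libraries (replicates 1-4), and 2 libraries used control IgG. The treatment recorded for every sample, controls included, was 2 mg tamoxifen per day for 5 days, with 14 to 21 days before harvest. The labels do not say if the tagged Ago2 was also present in the mice used for anti-Ago2 and IgG. The excitatory list differs from the whole forebrain lists in antibody, in the Ago2 protein pulled down and in cell type, and these cannot be told apart.

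Each list was called once on the pooled libraries of its group, from at least 3 reads in at least 2 libraries, so a group is 1 observation without replicate error. The lists held 766 peaks (excitatory), 3611 peaks (replicates 5-7), 246180 peaks (replicates 1-4) and 10 peaks (IgG). The number of reads behind each library is unknown here, and a longer list gives more chances to see a gene. Of 6 excitatory neuron markers, Camk2a alone had peaks in the excitatory list (14 peaks), while Slc17a7, Neurod2, Neurod6 and Tbr1, among others, had none. Camk2a is also the gene whose promoter drives the Cre. Of 5 other cell types with a marker list, inhibitory neurons, astrocytes, microglia and vascular cells had no marker with a peak there, while the oligodendrocyte list had peaks.

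NMDA receptors are glutamate-gated calcium channels that open when glutamate and a co-agonist bind while the membrane is depolarised. They are assembled from the obligatory GluN1 subunit, encoded by Grin1, and GluN2 or GluN3 subunits, encoded by the Grin2 and Grin3 genes. In forebrain, GluN2A (Grin2a) and GluN2B (Grin2b) are the main GluN2 subunits, GluN2C (Grin2c) is best known from cerebellum, GluN2D (Grin2d) from interneurons and early development, and GluN3A (Grin3a) lowers calcium permeability. MicroRNAs guide Ago2 to target RNAs mainly through the seed, bases 2 to 8 of the mature strand, usually lowering the stability or translation of the target.

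The microRNAs below carried high-scoring peaks on the 3 genes with most peaks, or share a seed with one that did and overlapped its peak. The mature sequences are from RefSeq (GRCm38.p6), with the seed in capitals.
miR-29a-3p: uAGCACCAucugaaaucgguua
miR-29b-3p: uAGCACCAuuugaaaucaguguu
miR-29c-3p: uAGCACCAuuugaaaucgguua
miR-153-3p: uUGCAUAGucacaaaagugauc
miR-9-5p: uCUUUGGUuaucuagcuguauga
miR-125a-5p: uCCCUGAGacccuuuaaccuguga
miR-125b-5p: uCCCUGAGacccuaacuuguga
miR-181a-5p: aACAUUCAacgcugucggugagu
miR-181b-5p: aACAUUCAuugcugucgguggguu
miR-181c-5p: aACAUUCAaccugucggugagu
miR-128-3p: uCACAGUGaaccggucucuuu
The 3 miR-29 members share the seed AGCACCA, the 3 miR-181 members ACAUUCA and both miR-125 members CCCUGAG. A sequence was matched to 592 of the 746 small RNA names in the list of replicates 1-4, and to 71 of the 80 names found on the subunit genes. MiR-124-3p, the small RNA with the most subunit peaks, is given by name.

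The subunits fell into 2 sets in the list of replicates 1-4. Grin2b had 454 peaks, Grin2a 310 and Grin1 49, against 4 on Grin3a, 3 on Grin2d and 2 on Grin2c. The median target gene of that list had 5 peaks, and of 11352 genes Grin2b ranked 55th, Grin2a 86th and Grin1 810th, while Grin3a, Grin2d and Grin2c ranked 6156th, 6825th and 7745th. Grin2a and Grin2b together held 764 of the 822 subunit peaks (92.9%). A peak count follows the length and amount of the RNA as well as its pairing with small RNAs, and it is not a level of expression.

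Per kilobase of gene span, Grin1 had the highest density of the 6. Grin1 spans 28011 bases (mm10 chr2:25291177-25319187) and had 1.75 peaks per kb of span. Grin2b spans 460395 bases (chr6:135713221-136173615) and had 0.986, and Grin2a spans 428183 bases (chr16:9567901-9996083) and had 0.724. The median gene had 0.226 peaks per kb of span. Grin2c (chr11:115249169-115267297) had 0.11, Grin2d (chr7:45831883-45871194) had 0.0763 and Grin3a (chr4:49661611-49846023) had 0.0217, all below that median. All 6 genes lie on the minus strand, and every subunit peak lay on that strand.

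**Figure D1:**
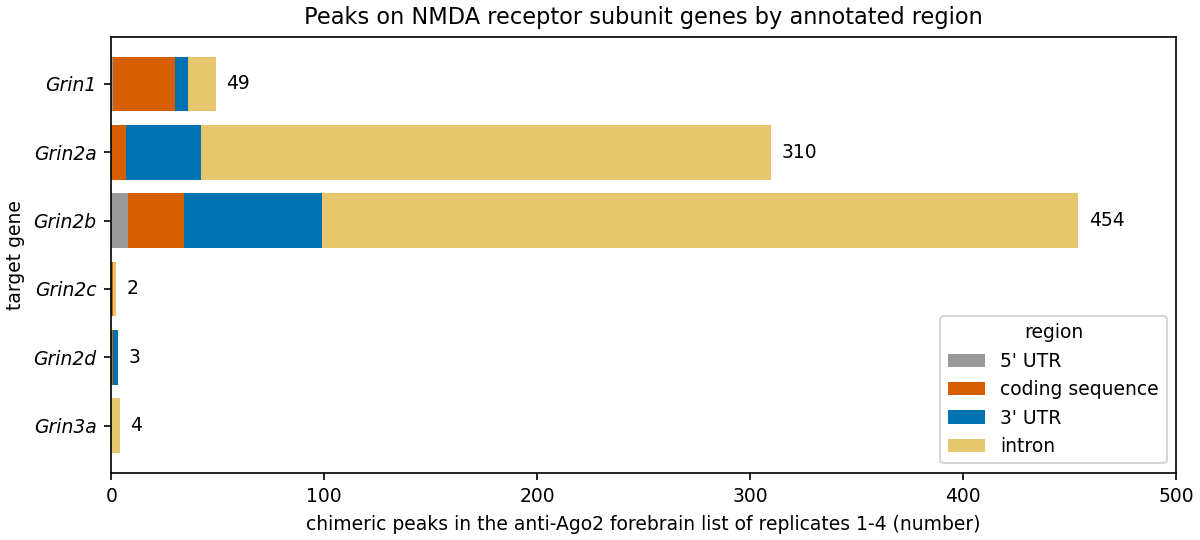
Number of chimeric peaks (horizontal axis) on each subunit gene in the anti-Ago2 list of replicates 1-4, stacked by annotated region. Introns hold most peaks of Grin2b (355 of 454) and Grin2a (268 of 310), and coding sequence holds 29 of the 49 Grin1 peaks.

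Of the 822 subunit peaks in replicates 1-4, 641 lay in introns (78.0%), 108 in 3′ UTRs (13.1%), 64 in coding sequence (7.79%) and 9 in 5′ UTRs. The 3 genes with enough peaks to test differed in where the peaks lay. By count, Grin1 carried its peaks mostly in coding sequence, while Grin2a and Grin2b carried theirs mostly in introns and, outside introns, in the 3′ UTR.

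The 3′ UTR held 35 of the 42 coding and 3′ UTR peaks of Grin2a (83.3%, exact 95% interval 68.6 to 93.0), against 45.2% on other genes. For Grin2b it held 65 of 91 (71.4%, interval 61.0 to 80.4), and for Grin1 it held 6 of 35 (17.1%, interval 6.56 to 33.6), against the same 45.2% on other genes. These shares take no account of length. Per kb of annotated 3′ UTR, Grin1 had 6.83 peaks, Grin2a 3.53 and Grin2b 3.45. The longest Grin2b coding segment that held a peak (1850 bases) had 13 peaks, or 7.03 per kb. Density over all coding sequence was not computed, so the shares do not say which region was denser. By two-sided Fisher's exact tests, adjusted by Benjamini-Hochberg over 3034 genes, the share was higher for Grin2a (adjusted p = 6.41e-06) and Grin2b (adjusted p = 9.16e-06), and lower for Grin1 (adjusted p = 0.00344). All 3 tested subunits were thus called, where 46.7% of tested genes were called in either direction, 23.7% higher and 23% lower. In the same exact test with overlapping peaks merged into sites, the Grin1 difference was -28.7 points with adjusted p = 0.0569, and among peaks with a score of at least 5 the Grin2b difference was 14.8 points with adjusted p = 0.148. Intervals and p-values cover counting error within pooled lists only, since each list pools the libraries of its group. They treat peaks as independent, which was not tested.

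Introns held 268 of the 310 Grin2a peaks (86.5%, interval 82.1 to 90.1) and 355 of the 454 Grin2b peaks (78.2%, interval 74.1 to 81.9), in each case against 47.5% over the peaks of other genes. Introns held 13 of the 49 Grin1 peaks (26.5%, interval 14.9 to 41.1), against 47.6% over the peaks of other genes. The median tested gene had 19.4% of its peaks in introns. As annotated, the Grin1 share lay below the pooled share of other genes and above that of the median gene. However, 4 of the 13 Grin1 intron peaks reached past the end of their intron (30.8%, beside 3.31% of all intron peaks). Only 1 base of each of these 4 lay inside the intron. Whether Grin1 would stay above the median gene with these peaks assigned to coding sequence was not tested. Fisher's exact test gave adjusted p = 4.53e-45 for Grin2a and adjusted p = 2.54e-39 for Grin2b, both higher than other genes. For Grin1 the share was lower, with adjusted p = 0.00657 by the same exact test. A call in either direction was made for 71.5% of the 4099 tested genes, 16.8% higher and 54.7% lower, so a lower call, as for Grin1, is the most frequent outcome. The Grin1 difference was -8.48 points with adjusted p = 0.504 (Fisher's exact test) among peaks at or above the median score. Grin2c, Grin2d and Grin3a had fewer than 10 peaks and were not tested.

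The authors' peak score, for which the labels and headers state no definition, was 3 at the lowest and 4 at the median for the subunit genes and for the whole list. Intron peaks were mostly low: 24 of the 641 subunit intron peaks scored 10 or more (3.74%), against 4.29% of all intron peaks. In coding sequence 17 of 64 subunit peaks scored 10 or more (26.6%), against 20.5% of all coding peaks. In 3′ UTRs the count was 17 of 108 (15.7%), against 20.1% of all 3′ UTR peaks. These shares are given without a test.

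**Figure D2:**
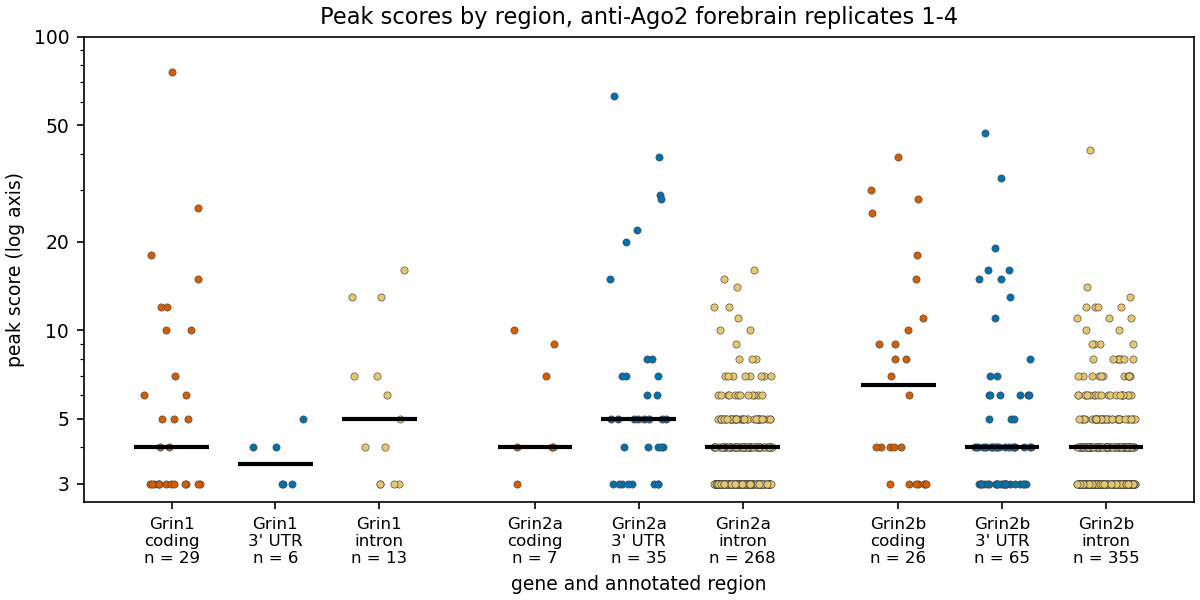
Score of each chimeric peak (vertical log axis, the authors' score) on Grin1, Grin2a and Grin2b by annotated region in the anti-Ago2 list of replicates 1-4; points are peaks, spread sideways for visibility, and bars are medians. Scores above 20 lie in coding sequence for Grin1, in the 3′ UTR for Grin2a, and in coding sequence, the 3′ UTR and 1 intron for Grin2b; the 9 peaks in 5′ UTRs, the highest a miR-124-3p peak on Grin2b with a score of 32, are not drawn.

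Grin1 encodes the subunit that every NMDA receptor contains. Its highest peak was a miR-153-3p peak in coding sequence (chr2:25296999-25297012) with a score of 76, the highest on any of the 6 genes. The next highest were a miR-29a-3p coding peak with a score of 26 (chr2:25303942-25304051) and a miR-128-3p coding peak with a score of 18 (chr2:25297612-25297630). In introns the highest was a miR-124-3p peak with a score of 16 (chr2:25303835-25303842). The 3′ UTR of Grin1 is short, 878 bases, and its 6 peaks (6.83 per kb) scored between 3 and 5, the highest being let-7d-5p.

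Peaks on Grin1 were concentrated in one place. A 98 base intron (chr2:25303810-25303907) and the adjoining 144 base coding segment (chr2:25303908-25304051) together held 16 of the 49 peaks (32.7%), from 14 small RNAs. The intron carried 7 of them, including miR-124-3p with a score of 16 and miR-125b-5p with a score of 13. The coding segment carried 9, including miR-29a-3p with a score of 26 and miR-29b-3p with scores of 10 and 7.

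The miR-29 seed AGCACCA accounted for 12 of the 49 Grin1 peaks (24.5%, exact 95% interval 13.3 to 38.9), beside 7.94% of all peaks in the list. The 12 were 5 miR-29c-3p peaks, 4 of miR-29b-3p and 3 of miR-29a-3p. Most of them overlapped other miR-29 peaks, while the interval treats peaks as independent. Merging overlapping peaks into sites gave 25 sites on Grin1, and 3 of these held all 3 miR-29 members, beside 1625 of the 183883 sites in the list (0.884%). The first (chr2:25297181-25297210) lay in coding sequence, with scores of 15 for miR-29a-3p, 5 for miR-29b-3p and 5 for miR-29c-3p. The others lay on either side of one intron. One was a coding site (chr2:25303928-25304051) reaching the edge of its segment, and the other (chr2:25305038-25305046) was assigned to the intron although 1 base of each of its 3 peaks lay inside it and 4 to 8 bases lay beyond its end. The sites on either side of this intron would adjoin in spliced RNA, and whether they are 1 site counted separately was not tested. The shares of small RNAs on Grin1 are a description, since the test of pairs took genes with at least 50 peaks. In a setting added after seeing the data, with genes of at least 30 peaks, miR-29c-3p made up 10.2% of Grin1 peaks against 1.09% on other genes, with adjusted p = 0.0571 by Fisher's exact test. In that setting 0.33% of pairs were called, 0.199% higher and 0.131% lower.

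**Figure D3:**
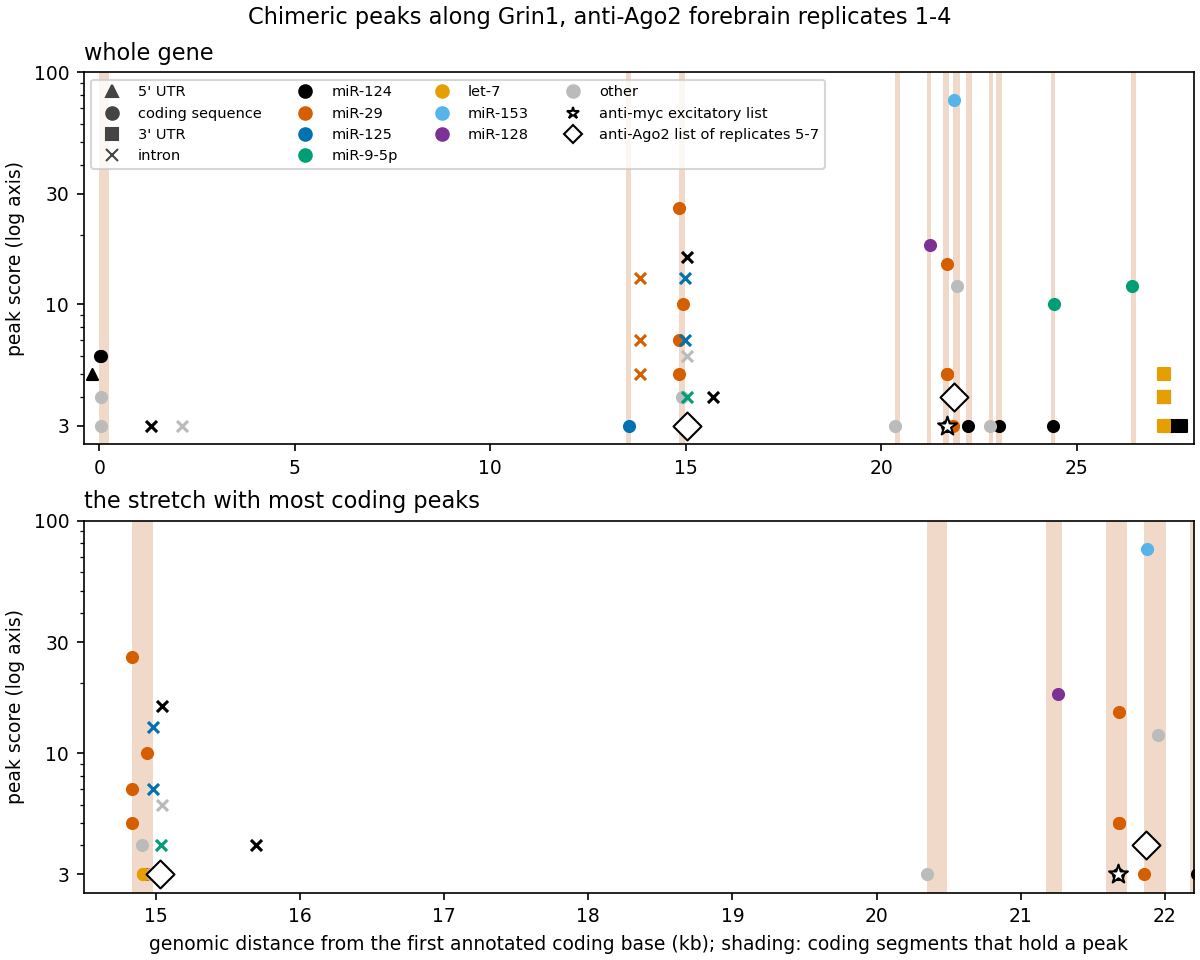
Peak score (vertical log axis) against genomic distance from the first annotated coding base of Grin1 in kb, for the anti-Ago2 list of replicates 1-4, over the whole gene (top) and one stretch of it (bottom); marker shape gives the region, colour the small RNA family, and shading the coding segments that hold a peak. White stars and diamonds are peaks of the excitatory list and of the list of replicates 5-7; the miR-153-3p peak with a score of 76 stands above all others, and most miR-29 peaks gather at 3 positions.

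Grin2a encodes GluN2A, a glutamate-binding subunit that becomes more abundant as forebrain synapses mature. Its 6 highest peaks all lay in its 3′ UTR, 9928 bases long with 35 peaks from 17 small RNAs (3.53 peaks per kb). A miR-9-5p peak scored 63 (chr16:9571911-9571929, 5898 bases from the start of the 3′ UTR), and a second miR-9-5p peak scored 29 (chr16:9572448-9572464). A miR-125b-5p peak scored 39 (chr16:9576928-9576942, 885 bases from the start), and overlapped a miR-125a-5p peak with a score of 22. In coding sequence the highest was miR-132-3p with a score of 10 (chr16:9992519-9992541), and in introns miR-340-5p with a score of 16 (chr16:9901870-9901908). The annotation assigned 239 of the 310 Grin2a peaks to one intron (chr16:9761984-9992120), or 1.04 peaks per kb, and 5 more to shorter annotated introns within it.

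Grin2b encodes GluN2B, the glutamate-binding subunit that predominates early in forebrain development and persists in adult forebrain. Its highest peak was miR-181a-5p in the 3′ UTR with a score of 47 (chr6:135730603-135730622, 1476 bases from the start), overlapping miR-181b-5p with a score of 15 and miR-181c-5p with a score of 13. The second was a miR-124-3p intron peak with a score of 41 (chr6:136034216-136034231), the highest intron peak of the 6 genes. The third was a miR-124-3p coding peak with a score of 39 (chr6:135732180-135732196). A miR-29a-3p peak scored 33 in the 3′ UTR (chr6:135719796-135719813, 12285 bases from the start), overlapping miR-29b-3p with a score of 19 and miR-29c-3p with a score of 11.

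The annotated 3′ UTR of Grin2b is 18864 bases long and held 65 peaks (3.45 per kb). A shorter annotated form covers its first 2271 bases, which held 14 peaks (6.16 per kb), while the remaining 16593 bases held 51 (3.07 per kb). The miR-181 site lay in the first stretch and the miR-29 site in the second. In the long introns of Grin2b, 143 peaks lay in one (chr6:136044320-136171416, 1.13 per kb) and 140 in another (chr6:135923471-136043891, 1.16 per kb).

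**Figure D4:**
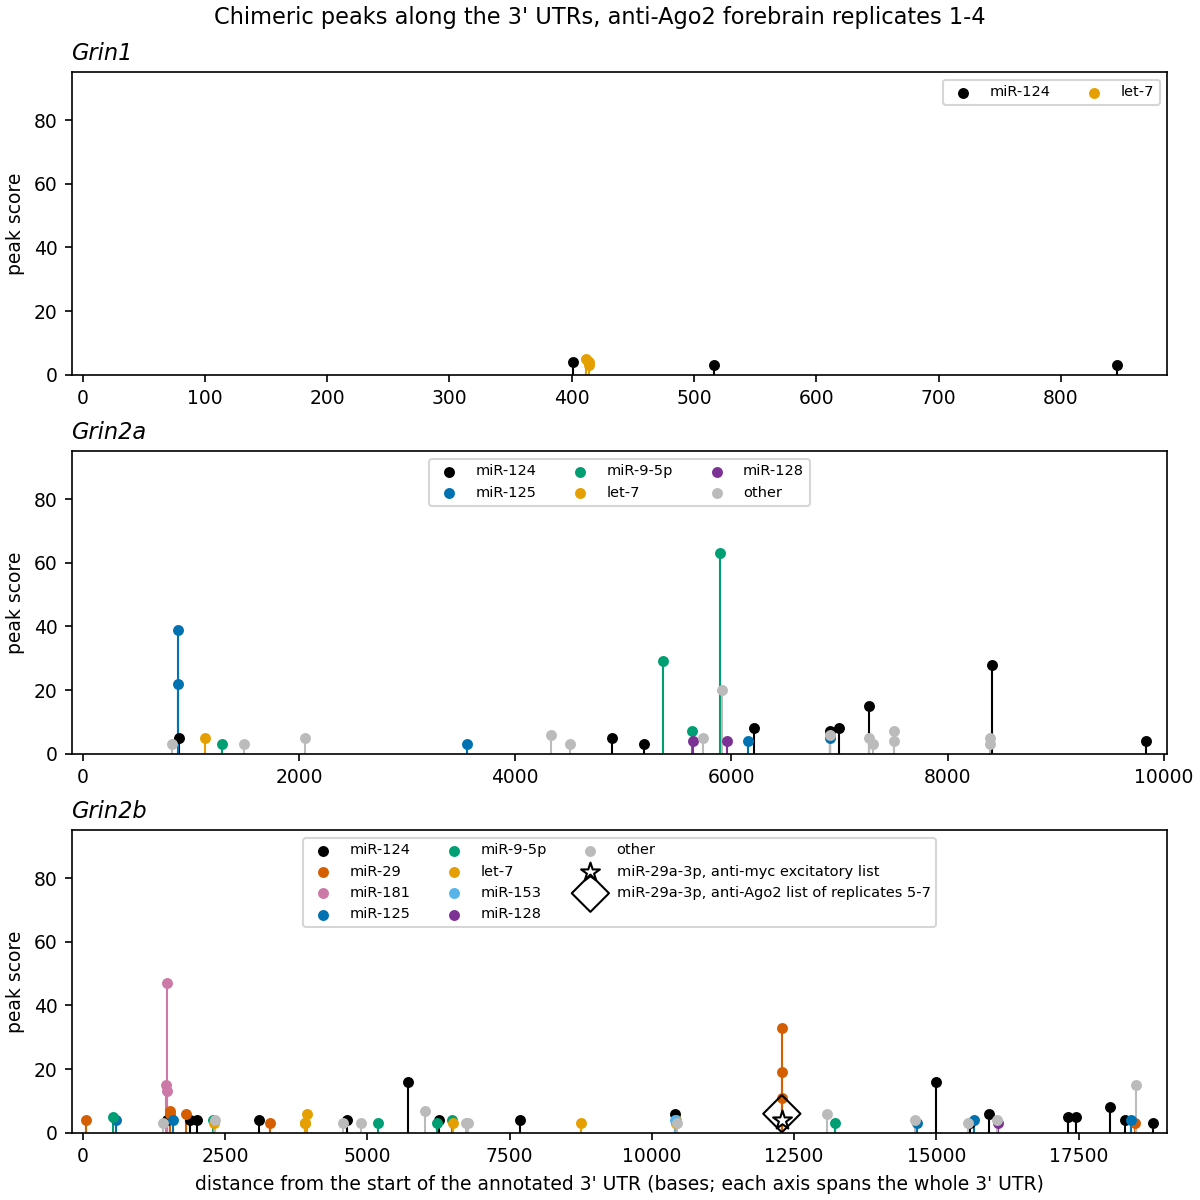
Peak score (vertical axis) against distance in bases from the start of the annotated 3′ UTR of Grin1, Grin2a and Grin2b in the anti-Ago2 list of replicates 1-4, coloured by small RNA family, with each horizontal axis spanning that 3′ UTR. The tallest peaks are miR-9-5p (63) on Grin2a and miR-181a-5p (47) on Grin2b; the black-edged star and the open diamond mark the miR-29a-3p peaks of the excitatory list and of replicates 5-7 at the Grin2b miR-29 site.

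The other subunits had few peaks, all listed here. On Grin2d, miR-128-3p peaks scored 20 (chr7:45832216-45832249) and 6 in the 3′ UTR, and a miR-124-3p peak scored 4 in coding sequence. On Grin3a, 4 intron peaks scored 10 (miR-9-5p) and 3 (miR-26a-5p, miR-124-3p and miR-29a-3p). On Grin2c, a miR-29a-3p peak scored 5 in coding sequence and a miR-138-5p peak scored 3 in an intron.

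Across the 6 genes miR-124-3p, the small RNA with most peaks in the list, had 319 of 822 peaks (38.8%), beside 29.3% of all peaks. MiR-9-5p followed with 82 (9.98%, beside 10.7% of all peaks), then miR-26a-5p with 51 and miR-125b-5p with 49. The let-7 seed GAGGUAG had 42 (5.11%), beside 8.81% of all peaks, without regard to region. Let-7c-5p, the let-7 member with most subunit peaks, made up 1.25% of subunit intron peaks, beside 1.33% of all intron peaks. Among 5′ UTR, coding and 3′ UTR peaks it made up 3.87%, beside 3.50% of all such peaks. The seed as a whole was not compared by region. On Grin2a the leading 5 were miR-124-3p (118), miR-9-5p (35), miR-26a-5p (25), miR-125b-5p (20) and miR-128-3p (11). On Grin2b they were miR-124-3p (186), miR-9-5p (43), miR-125b-5p (27), miR-128-3p (25) and miR-26a-5p (24). Grin1 was led by miR-124-3p (13), miR-29c-3p (5) and miR-29b-3p (4), with miR-9-5p and miR-29a-3p at 3 each. Grin2a and Grin2b had 34 small RNAs in common, of 52 on Grin2a and 60 on Grin2b, and 16 of these were also among the 23 on Grin1.

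MiR-124-3p made up 186 of the 454 Grin2b peaks (41.0%, exact 95% interval 36.4 to 45.6), against 29.3% on other genes, and the difference passed Fisher's exact test over 26697 pairs of a gene and a small RNA (adjusted p = 6.44e-05). For Grin2a its share was 118 of 310 (38.1%, interval 32.6 to 43.7), against 29.3% on other genes, with adjusted p = 0.0887 by the same exact test. No other small RNA passed on Grin2a or Grin2b. Of all pairs tested 0.809% were called, 0.513% higher and 0.296% lower. MiR-124-3p had a higher share in introns in general, 37.7% of intron peaks on other genes, beside 21.1% of their 5′ UTR, coding and 3′ UTR peaks. By the same exact test, among intron peaks alone its share on Grin2b was 44.8% with adjusted p = 0.366, and among 5′ UTR, coding and 3′ UTR peaks alone it was 27.3% with adjusted p = 1. Within either class the Grin2b share was thus above that of other genes without passing the test.

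**Figure D5:**
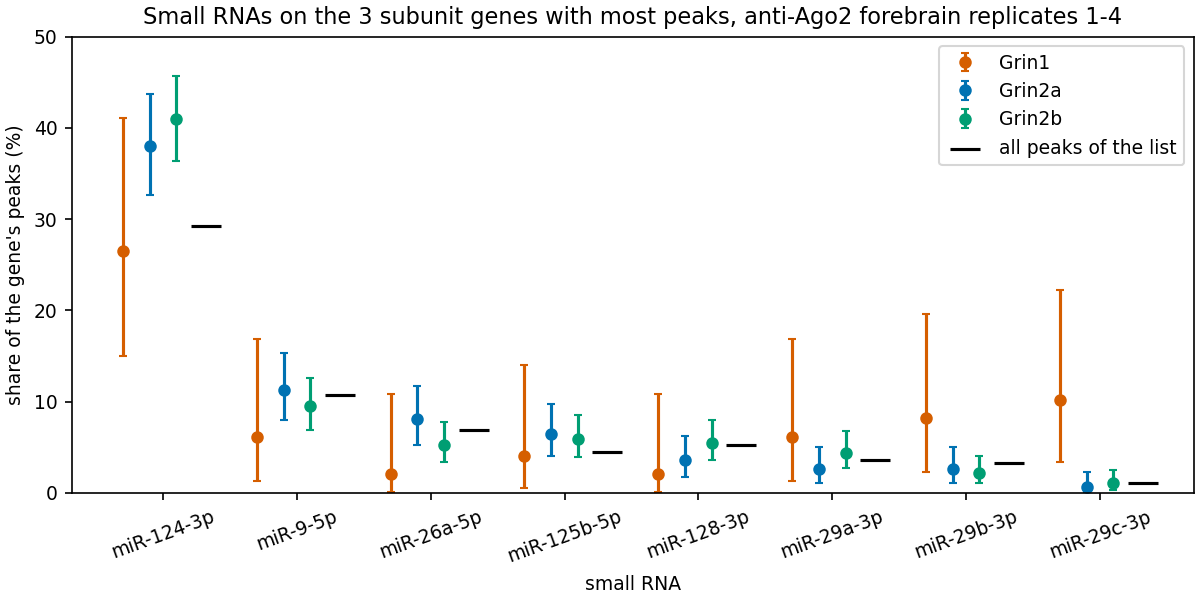
Share of each gene's peaks (vertical axis, %) for 8 small RNAs on Grin1, Grin2a and Grin2b in the anti-Ago2 list of replicates 1-4, with exact 95% binomial intervals; black dashes are the share of all peaks in that list. MiR-124-3p is at 41.0% on Grin2b and 38.1% on Grin2a, above the 29.3% of all peaks, and miR-29c-3p is at 10.2% on Grin1.

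The small lists held 5 subunit peaks, and each lay on a site seen with the same small RNA in replicates 1-4. The excitatory list had 2: miR-29a-3p on Grin1 coding sequence (chr2:25297188-25297210, score 3) and miR-29a-3p on the Grin2b 3′ UTR (chr6:135719796-135719813, score 4). The corresponding peaks of replicates 1-4 scored 15 and 33. The list of replicates 5-7 had 3: miR-153-3p on Grin1 coding sequence (score 4), miR-124-3p on the short Grin1 intron (score 3), and miR-29a-3p on the Grin2b 3′ UTR (score 6). The corresponding peaks of replicates 1-4 scored 76, 16 and 33. The Grin2b miR-29a-3p site was therefore present in all 3 Ago2 lists. In the whole lists, 713 of 766 excitatory peaks (93.1%) and 3160 of 3611 peaks of replicates 5-7 (87.5%) were found again in this way, so being found again was common to these lists. With a reciprocal overlap of 50%, 1 of the 2 excitatory peaks and 2 of the 3 peaks of replicates 5-7 were still found.

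No subunit gene's share of a list's peaks passed the test in either comparison where it could be tested. All 6 genes together took 0.261% of the excitatory list (exact 95% interval 0.0316 to 0.94), 0.0831% of replicates 5-7 (interval 0.0171 to 0.243) and 0.334% of replicates 1-4 (interval 0.311 to 0.357). In IgG no subunit peak was seen among 10 peaks, which allows a share of up to 30%. In pulled-down tissue, fewer cells of a type and less RNA per cell cannot be told apart.

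Grin1 had 1 peak, or 0.131% of the excitatory list, against 49 peaks, or 0.0199%, of replicates 1-4 (Fisher's exact test, p = 0.144, adjusted p = 1). Grin2b had 1 peak, or 0.131% of the excitatory list, against 454 peaks, or 0.184%, of replicates 1-4 (adjusted p = 1 by the exact test). Grin2a had no peak in the excitatory list, which allows up to 0.392%, against 310 peaks, or 0.126%, of replicates 1-4 (adjusted p = 1 by the exact test). None of these 3 genes was called, where 0.268% of the 4103 tested genes were called, all of them higher in the excitatory list. A list of 766 peaks leaves little room for a lower call. Even Dlg2, with 0 peaks there against 0.680% of replicates 1-4, had adjusted p = 0.906 by Fisher's exact test. A lower share of Grin2a or Grin2b could therefore not have been called. A score of at least 5 leaves no Grin1 peak in the excitatory list and turns the sign of its difference.

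Grin1 had 2 peaks, or 0.0554% of the list of replicates 5-7, against 0.0199% of replicates 1-4 (p = 0.168, adjusted p = 1 by Fisher's exact test). Grin2b had 1 peak, or 0.0277% of replicates 5-7, against 0.184% of replicates 1-4 (p = 0.0175, adjusted p = 0.432 by Fisher's exact test). Grin2a had none in replicates 5-7, which allows up to 0.0831%, against 0.126% of replicates 1-4 (p = 0.0268, adjusted p = 0.527 by Fisher's exact test). None of the 3 was called, where 1.33% of the 4132 tested genes were called, 0.653% higher and 0.678% lower. Introns made up 4.05% of excitatory peaks, 6.04% of peaks in replicates 5-7 and 47.6% of peaks in replicates 1-4. Grin2a and Grin2b, the subunits with most intron peaks, are therefore set between lists of unlike composition. Replicates 5-7 minus replicates 1-4 gave -0.126 points for Grin2a and -0.157 points for Grin2b. With 5′ UTR, coding and 3′ UTR peaks alone these differences were -0.0404 and -0.0533 points, again without passing the threshold. The part of composition in their shares was not tested beyond this. Between the excitatory list and replicates 5-7 no subunit gene had enough peaks for a test, and 21.9% of the 32 tested genes were called, 9.38% higher and 12.5% lower.

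Pairs reported earlier for these genes were looked up by name. Grin2a and miR-125b-5p had 20 peaks in replicates 1-4, of which 4 lay in the 3′ UTR, with a highest score of 39. This small RNA made up 6.45% of Grin2a peaks, against 4.43% on other genes (adjusted p = 0.873, Fisher's exact test). No peak joined Grin2b to miR-223-3p, Grin2a to miR-19a-3p or Grin2b to miR-539-5p, small RNAs with 3, 6 and 4 peaks in the whole list. Grin1os, annotated on the opposite strand of Grin1 (chr2:25291258-25298660), had no peak in any list, although 20 Grin1 peaks lay within its span.

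The other ionotropic glutamate receptor genes, which encode AMPA, kainate and delta receptor subunits, had 1162 peaks in replicates 1-4, with peaks on 11 of 11 genes. Among the leading ones were Grik2 (257), Gria2 (179), Grid1 (161) and Gria1 (144), and Grin2a and Grin2b had more peaks than any gene of that list. None of the 11 was called between the excitatory list or replicates 5-7 and replicates 1-4. For the 3′ UTR share, 2 of 6 tested were called higher and 0 lower, beside 23.7% of all tested genes higher and 23% lower. Their median share was 60.0%, beside a median of 46.2% over all tested genes. For the intron share, 8 of 11 were called higher and 2 lower, beside 16.8% of all tested genes higher and 54.7% lower.

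A list of the further subunit gene Grin3b and of receptor partners, among them scaffolds, kinases, a phosphatase and genes that set co-agonist levels, had 2606 peaks in replicates 1-4 on 15 of 16 genes. They were led by Dlg2 (1675), a postsynaptic scaffold, and Camk2a (524), the calcium-dependent kinase that binds GluN2B, with Camk2b (81) and Rasgrf1 (51) also among the leading ones. Grin3b had none. Of 12 tested, Camk2a alone was called in the excitatory list against replicates 1-4, with 1.83% of the excitatory list against 0.213% of replicates 1-4 (adjusted p = 5.17e-06, Fisher's exact test). It was also higher in replicates 5-7, with 0.665%, against 0.213% of replicates 1-4 (adjusted p = 0.000527, Fisher's exact test). Between the excitatory list and replicates 5-7 it was higher in the excitatory list (adjusted p = 0.0261, Fisher's exact test). Dlg2 was lower in replicates 5-7, with 0.194%, against 0.680% of replicates 1-4 (adjusted p = 0.0103, Fisher's exact test). For the 3′ UTR share 1 of 12 was called higher and 4 lower, beside 23.7% of all tested genes higher and 23% lower. Their median share was 35.1%, beside 46.2% over all tested genes.

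The genes whose small RNA make-up was most like that of each subunit were found from the shares of 746 small RNAs over 809 genes with at least 50 peaks. Similarity was 1 for identical shares and 0 for none in common. Those most like Grin2a were Erc2 (0.868), Nrxn3 (0.862) and Opcml (0.856), beside a median of 0.688 over genes. Those most like Grin2b were Ext1 (0.862), Cacna1c (0.859) and Dlgap2 (0.858), beside a median of 0.690. In these 6 genes introns held 93.3 to 98.3% of peaks, and all points come from one pooled list. They had 373 to 1760 peaks each, while the median covers genes with as few as 50. Similarity was not adjusted for the number of peaks, and its part in these values was not tested.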

How the data were processed

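Chimeric Ago2 CLIP joins small RNA to target RNA by ligation after ultraviolet cross-linking, per the labels' protocols. The authors deposited one peak list per group, in mm10 coordinates per the submitters' processing notes, with a small RNA, a target gene, a region and a score per peak. Peaks were called on pooled libraries with a minimum of 3 reads in 2 libraries, per the file headers. The deposited score has no stated definition. It was used to describe, rank and filter peaks within a list. No source used here names the aligner or the peak caller.

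From the lists, peaks per gene, region and small RNA were counted in Python 3.11.15 with pandas 2.3.3 and SciPy 1.17.1 (figures: matplotlib 3.10.9). Shares carry exact (Clopper-Pearson) 95% intervals, and a count of 0 allows up to 3 peaks. Tests were two-sided Fisher's exact tests with Benjamini-Hochberg adjustment at 0.05, over all genes with at least 10 peaks, or over pairs of a gene with at least 50 peaks and a small RNA with at least 1000. They compare pooled lists, with counting error only, and were tested on simulated data. Gene positions and microRNA sequences are from RefSeq (GRCm38.p6). Named peaks were the 3 highest per gene and the highest in coding sequence, 3′ UTR and intron. Any further peaks were chosen after their values were seen. Members and gene lists were chosen with earlier results of these data known. Values of some genes of the marker and pathway lists are not reported here.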

Additional observations from a re-analysis of the deposited data

How the results depend on the processing

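No paired analysis was possible because each list pools the libraries of its group, and for the same reason no library could be left out. For the subunit genes, the higher intron shares of Grin2a and Grin2b and the higher 3′ UTR share of Grin2a passed the threshold under every alternative tested for them. Untested sums of scores in place of peak counts gave intron differences of 49.8 points (Grin2a), 43.4 points (Grin2b) and -0.978 points (Grin1), and a 3′ UTR difference of 15.1 points for Grin2b. The Grin1 intron difference was -2.28 points (Fisher's exact test, adjusted p = 1) at a score of at least 5. The Grin2a share of miR-124-3p passed once small RNAs of 1 seed were merged (Fisher's exact test, adjusted p = 0.0382). MiR-124-3p had no matched sequence, so its 118 of 310 peaks stayed the same. What changed was the set of tests, 18607 pairs with 509 called in place of 26697 with 216 called. Merging overlapping peaks of 1 small RNA changed nothing. Some differences in share between lists turned sign, none of them past the threshold. Grin1 in the excitatory list minus replicates 1-4 was -0.0197 points at or above the median score and -0.0235 at a score of at least 5. Grin2b in the same pair was 0.0659 at or above the median score and 0.0766 with 5′ UTR, coding and 3′ UTR peaks alone. Grin1 in replicates 5-7 minus replicates 1-4 was -0.0235 at a score of at least 5. The causes were not tested. Reducing the larger list to its highest-scoring peaks left the subunit genes below the minimum for a test. Over all genes, the number called in the excitatory list against replicates 1-4 (11) was 3 at a score of at least 5. It was 4 with 5′ UTR, coding and 3′ UTR peaks alone and 3 with the larger list reduced. For replicates 5-7 against replicates 1-4 (55) it was 21 at or above the median score and 10 at a score of at least 5. It was 0 with 5′ UTR, coding and 3′ UTR peaks alone and 3 with the larger list reduced. For the excitatory list against replicates 5-7 (7) it was 1, 3, 0 and 4 under the same 4 settings, 0 without ribosomal RNA peaks, 1 with merged sites and 1 with a minimum of 5 peaks. For the 3′ UTR share (1417) it was 692 at a score of at least 5, 543 with merged sites and 816 with a minimum of 20 peaks. For the intron share (2931) it was 1859 at or above the median score, 1110 at a score of at least 5 and 1789 with a minimum of 20 peaks. Pairs called (216) numbered 17 with 5′ UTR, coding and 3′ UTR peaks alone and 509 with seeds merged. They numbered 39 in introns alone, a setting chosen after seeing the data. At a reciprocal overlap of 50%, 1 excitatory subunit peak was found again.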
